A study of Mus musculus with 15 samples.

Results

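Collagen crosslinking and maturation enzymes were followed through bleomycin-induced lung fibrosis in mice. The group was set as a fixed list of 10 genes, Lox, Loxl1, Loxl2, Loxl3, Loxl4, Plod1, Plod2, P4ha1, P4ha3 and Serpinh1, out of 33340 genes in the count table. The list was chosen with earlier results of these data known. All 10 passed the filter on low counts, which left 17457 genes for testing. RNA was sequenced from whole lungs of male C57BL/6 mice aged 10 to 12 weeks, and 15 libraries were analysed. The control group at day 0 held 4 libraries. The groups taken 7, 14 and 21 days after intratracheal bleomycin at 5 U/kg held 4, 4 and 3 libraries. The labels name no transgene or deletion in any group, and the control was lung at day 0, so no group shows what time or the instillation alone would do. The labels do not say that the libraries of a group came from separate animals, so p-values measure the spread between these samples.

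Collagen is modified first inside the secretory pathway and then in the matrix. In the endoplasmic reticulum, prolyl 4-hydroxylases hydroxylate prolines so that the triple helix is stable, lysyl hydroxylases modify lysines that later form crosslinks, and the chaperone HSP47 holds the folded helix until export. Outside the cell, copper-dependent lysyl oxidases oxidise lysines of collagen and elastin, and the aldehydes formed condense into covalent crosslinks that stiffen the fibre and slow its removal. These crosslinks accumulate in fibrotic lung.

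Total counts ranged from 15652008 to 18020661 per library, and levels are given as CPM, read counts scaled to a common library size. Counts from mitochondrial genes took 2.28% to 4.22% of the day 0 libraries, 2.03% to 2.15% at day 7, 2.1% to 4.14% at day 14 and 2.66% to 4.01% at day 21, and replicates 1 and 2 of day 0 lay low while replicates 3 and 4 lay high. Replicate 4 of day 0 is titled a control but carries a treatment label of bleomycin, and it was kept by its title. Replicate 1 of day 14 stood highest of its group for 7 of the 10 genes and was also its only library of a low mitochondrial share, at 2.1% against 3.74% to 4.14% in the other three, and the part of that share in its values was not tested. Values that turn on 1 of these libraries are also given without it. Values among libraries of a lower share alone compare day 7 with only replicates 1 and 2 of day 0. Those among libraries of a higher share compare replicates 2, 3 and 4 of day 14 with only replicates 3 and 4 of day 0.

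Sequence upstream of the gene start was available for 5 of the 10 genes, Loxl4, Plod1, P4ha1, P4ha3 and Serpinh1. The 250 bases before the start are shown for P4ha1 and P4ha3, which encode alternative catalytic subunits of one enzyme and moved in opposite directions, and for Serpinh1, the chaperone gene. The sequences come from RefSeq on GRCm38.p6 and read 5′ to 3′ on the gene's strand. They lie at chr10:59323046-59323295 (plus strand), chr7:100285270-100285519 (plus strand) and chr7:99353240-99353489 (minus strand). Capitals mark matches, on either strand, to ACGTG, a form of the core bound by hypoxia-inducible factors, and to CAGAC, the SMAD box. Other forms of the hypoxia core were not searched or marked.
P4ha1: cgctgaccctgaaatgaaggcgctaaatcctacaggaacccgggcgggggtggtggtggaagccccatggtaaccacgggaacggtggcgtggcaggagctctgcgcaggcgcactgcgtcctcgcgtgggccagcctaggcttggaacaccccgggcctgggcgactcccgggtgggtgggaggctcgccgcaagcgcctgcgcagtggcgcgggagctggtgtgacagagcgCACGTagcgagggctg
P4ha3: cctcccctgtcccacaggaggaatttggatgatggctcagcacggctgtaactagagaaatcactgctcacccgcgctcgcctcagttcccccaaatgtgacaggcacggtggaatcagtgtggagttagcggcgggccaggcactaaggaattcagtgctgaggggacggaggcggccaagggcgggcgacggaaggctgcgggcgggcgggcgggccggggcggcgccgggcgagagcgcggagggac
Serpinh1: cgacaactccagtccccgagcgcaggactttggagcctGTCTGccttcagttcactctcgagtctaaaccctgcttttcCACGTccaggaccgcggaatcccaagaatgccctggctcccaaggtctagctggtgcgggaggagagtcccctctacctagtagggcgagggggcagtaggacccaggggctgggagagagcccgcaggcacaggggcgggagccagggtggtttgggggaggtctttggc

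The P4ha1 window held 1 hypoxia core in the form searched, from 16 to 12 bases before the start. The Serpinh1 window held 1 hypoxia core and 1 SMAD box, and the P4ha3 window held neither. The heat shock element GAANNTTC was in none of the 5 windows. Of 32851 promoter windows of the same length, 16.6% held the hypoxia core, 42.2% the SMAD box and 6.69% the heat shock element. The Loxl4 and Plod1 windows held 1 SMAD box each. A match is a run of letters and was not tested for binding.

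Expression of most of the group was higher in bleomycin lungs than at day 0, the clearest being P4ha3 and the lysyl oxidases, while P4ha1 was called lower at day 21 alone. A gene was called changed when its adjusted p was under 0.05 and its fold change over 1.5 in edgeR's quasi-likelihood test, adjusted by Benjamini-Hochberg across all 17457 genes. At day 7, 6 of the 10 were higher than at day 0 (Lox, Loxl1, Loxl2, Loxl4, P4ha3 and Serpinh1), against 8.78% of all genes tested. At day 14, 8 of 10 were higher, Loxl3 and Plod1 having joined these, against 12% of all genes. At day 21, 7 of 10 were higher, against 12.4% of all genes, and 1, P4ha1, was lower, against 10.1%. Serpinh1 no longer passed at day 21, and Plod2 passed at no day. The median log2 fold change of the 10 genes was 1.05, 1.47 and 1.76 at days 7, 14 and 21, beside 0.01, 0.02 and 0.02 for all genes tested. Every library lay above every day 0 library for 8 genes at day 7, 9 at day 14 and 8 at day 21, against 17.6%, 16.8% and 19.4% of all genes, and every library lay below for 1 at day 21, against 16%. These 3 comparisons share the day 0 libraries. Since the list was chosen with earlier results of these data known, its counts beside the shares of all genes are a description. Since whole lung was sequenced, a change in the number of cells that express a gene cannot be told apart from a change in RNA per cell. The number called at day 7 was 3 without replicate 3 or replicate 4 of day 0 or replicate 1 of day 7, and 4 without replicate 1 of day 0 or replicate 2 of day 7. At days 14 and 21 the number higher was 7 or 8 whichever library was left out. A stricter test, of whether the fold change itself exceeded 1.5, kept neither Lox, Loxl2, Loxl4 nor Serpinh1 at day 7, neither Plod1 nor Serpinh1 at day 14, and neither Plod1 nor P4ha1 at day 21.

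**Figure D1:**
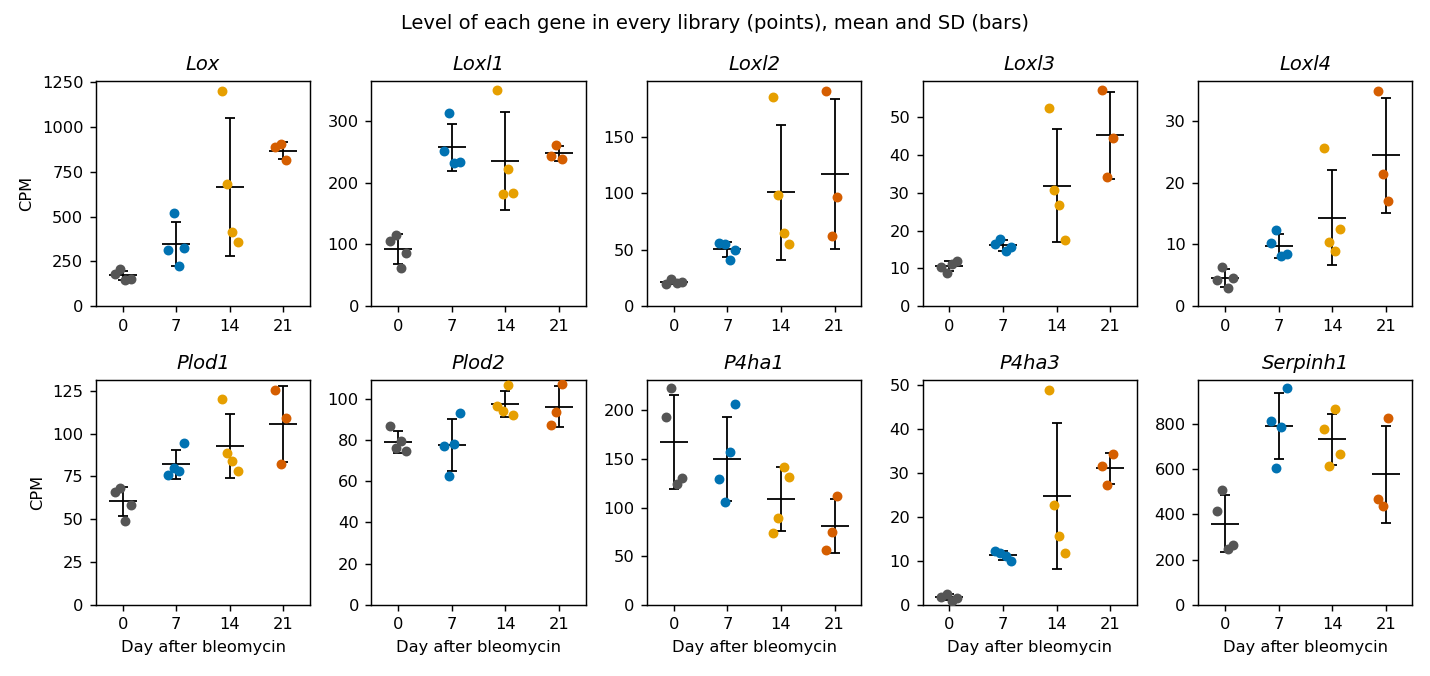
CPM of the 10 genes (y axis, linear from 0) in each library by day after bleomycin (x axis), with points for libraries and bars for the mean and SD of 4, 4, 4 and 3 libraries. P4ha3 climbs from 1.69 CPM at day 0 to 31.1 at day 21, P4ha1 lies at 80.9 CPM at day 21 beside 168 at day 0, and the highest day 14 point of Lox, at 1203 CPM, is replicate 1.

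Lox encodes lysyl oxidase, the founding crosslinking enzyme, which acts on fibrillar collagen and elastin (ENSMUSG00000024529, chr18:52516067-52529867, minus strand, GRCm38). The day 0 libraries measured 179.6, 206, 148 and 152 CPM and the day 7 libraries 315, 518, 226 and 325 CPM. At day 14 they measured 1203, 679.7, 413 and 359 CPM, and at day 21 889, 902 and 814 CPM. Every bleomycin library lay above every day 0 library, and the day 21 libraries lay close together while those of day 14 spanned more than the gap between the means of days 7 and 21. Lox rose by a log2 fold change of 1.01 ± 0.32 (SE) at day 7 (edgeR adjusted p = 0.0298), 1.95 ± 0.33 at day 14 (adjusted p = 0.000366) and 2.34 ± 0.34 at day 21 (adjusted p = 0.000161). The day 7 call was lost when the mitochondrial share was added to the fit, at 0.55 with adjusted p = 0.306. It was also lost among libraries with a lower share alone, at 0.83 with adjusted p = 0.0684, and without replicate 1, 3 or 4 of day 0 or replicate 1 or 2 of day 7, where adjusted p ran from 0.0564 to 0.111.

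Loxl1 encodes a lysyl oxidase-like enzyme needed for elastic fibre upkeep (ENSMUSG00000032334, chr9:58287738-58313186, minus strand). Its day 0 libraries measured 106, 116, 61.1 and 86.6 CPM. At day 7 they measured 250.4, 312, 231 and 233 CPM, at day 14 349.7, 181, 223 and 184 CPM, and at day 21 243, 260.4 and 238 CPM. No bleomycin library overlapped day 0, and the bleomycin days overlapped one another. Loxl1 rose, on the log2 scale, by 1.48 ± 0.22 at day 7 (edgeR adjusted p = 0.000304), 1.35 ± 0.22 at day 14 (adjusted p = 0.000267) and 1.42 ± 0.23 at day 21 (adjusted p = 0.000323). Its difference between days 21 and 7 was -0.06 ± 0.23 and did not pass (adjusted p = 0.897).

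Loxl2 encodes an oxidase with scavenger receptor domains that crosslinks collagen IV and fibrillar collagens (ENSMUSG00000034205, chr14:69609068-69695834, plus strand). It measured 19.2, 24.2, 20.5 and 21.5 CPM at day 0 and 55.8, 54.8, 41.1 and 49.7 CPM at day 7. The day 14 libraries held 186, 98.2, 64.5 and 55.1 CPM, and the day 21 libraries 191, 62.5 and 96.9 CPM. The day 0 values were tight and lay below all others, and replicate 1 was the highest library at both later days. Loxl2 rose by 1.24 ± 0.35 at day 7 (edgeR adjusted p = 0.0193), 2.24 ± 0.36 at day 14 (adjusted p = 0.000278) and 2.45 ± 0.38 at day 21 (adjusted p = 0.000239), on the log2 scale. With the mitochondrial share in the fit, the day 7 value was 0.97 with adjusted p = 0.166. The day 7 call was also lost without replicate 3 or 4 of day 0 or replicate 1 of day 7, with adjusted p from 0.0510 to 0.0525.

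Loxl3 encodes an oxidase closely related to Loxl2 (ENSMUSG00000000693, chr6:83034173-83052562, plus strand). It measured 10.5, 8.71, 11.2 and 12 CPM at day 0 and 16.5, 17.8, 14.5 and 15.6 CPM at day 7. At day 14 it measured 52.6, 30.8, 26.9 and 17.5 CPM, and at day 21 57.2, 34.2 and 44.5 CPM. All day 7 libraries lay above day 0, but the log2 fold change of 0.60 ± 0.26 did not pass (edgeR adjusted p = 0.0953). Among libraries with a lower mitochondrial share alone it was 0.73 and passed, with adjusted p = 0.0142. Loxl3 rose by 1.59 ± 0.26 at day 14 (adjusted p = 0.000290) and 2.1 ± 0.27 at day 21 (adjusted p = 5.98e-05). Of its exon bases, 535 (11.6%) are shared with Htra2 on the opposite strand, and whether counting used strand is not given in the sources used here. Htra2 had log2 fold changes of -0.08, 0.28 and 0.22 at days 7, 14 and 21 and was not called.

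Loxl4 encodes another oxidase of the scavenger receptor branch and was the least abundant of the family per kilobase of exon at every day (ENSMUSG00000025185, chr19:42593982-42612813, minus strand). It measured 4.27, 6.41, 2.92 and 4.58 CPM at day 0, from 46 to 106 reads a library, and 10.1, 12.3, 8.07 and 8.44 CPM at day 7. At day 14 it measured 25.6, 10.4, 8.87 and 12.4 CPM, and at day 21 34.8, 21.4 and 16.9 CPM. No bleomycin library overlapped day 0, and all day 21 libraries lay above all day 7 libraries. Loxl4 rose by 1.10 ± 0.34 at day 7 (edgeR adjusted p = 0.0268), 1.65 ± 0.34 at day 14 (adjusted p = 0.00165) and 2.42 ± 0.35 at day 21 (adjusted p = 0.000161), on the log2 scale. The day 7 call was lost with the mitochondrial share in the fit (0.72, adjusted p = 0.228) and in limma voom (1.12, adjusted p = 0.0513). It was lost as well without replicate 1, 3 or 4 of day 0 or replicate 1 or 2 of day 7, with adjusted p from 0.0615 to 0.0871.

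The make-up of the family was compared per kilobase of exon within each library. Lox made up 50.6% ± 2.9 (SD, n = 4) of the summed level of the 5 oxidases at day 0, 42.9% ± 5.4 at day 7, 56.4% ± 7.1 at day 14 and 61.9% ± 2.9 (n = 3) at day 21. Loxl1 made up 38.9% ± 4.1, 47.8% ± 4.6, 31.7% ± 7.6 and 25.6% ± 2.0 in that order. Lox and Loxl1 thus carried most of the family's RNA at every day. The day 21 Lox shares, from 58.9% to 64.7%, lay above every day 0 share, which reached 54.9%, and the Loxl1 shares, up to 27.1%, lay below every day 0 share, from 32.8%. Loxl2 took 5.66%, 5.75%, 7.56% and 7.23% on average, while the Loxl3 averages lay between 2.16% and 3.36% and those of Loxl4 between 1.41% and 1.94%. These shares are a description and were not tested.

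Plod1 encodes lysyl hydroxylase 1, which acts mainly on helical lysines (ENSMUSG00000019055, chr4:147909753-147936767, minus strand). It measured 65.9, 68.3, 49.0 and 58.1 CPM at day 0 and 75.9, 80.2, 77.9 and 94.5 CPM at day 7. The day 14 values were 120.3, 88.5, 83.9 and 78.1 CPM, and at day 21 126, 82.0 and 109 CPM. All bleomycin libraries lay above all day 0 libraries, by a small margin. The log2 difference was 0.44 ± 0.16 at day 7 (edgeR adjusted p = 0.04996), which is under the fold change threshold. Plod1 rose by 0.62 ± 0.16 at day 14 (adjusted p = 0.00721) and 0.81 ± 0.17 at day 21 (adjusted p = 0.00223). The day 14 value fell under the fold threshold without replicate 1 of day 14, at 0.45, and without replicate 3 or 4 of day 0, at 0.51 and 0.58.

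Plod2 encodes lysyl hydroxylase 2, the telopeptide enzyme that sets the pyridinoline type of crosslink (ENSMUSG00000032374, chr9:92542223-92608428, plus strand). It shares 346 exon bases (6.42%) with Gm38391, which had 5 to 30 reads a library. It measured 86.5, 76.1, 79.2 and 74.4 CPM at day 0 and 76.7, 62.2, 77.8 and 93.1 CPM at day 7. At day 14 it measured 96.6, 94.0, 106 and 92.1 CPM, and at day 21 87.3, 93.7 and 107 CPM. Days 0 and 7 overlapped, while all libraries of days 14 and 21 lay above all of day 0. The log2 differences were -0.03 ± 0.11, 0.30 ± 0.11 and 0.28 ± 0.12 at days 7, 14 and 21, and none passed (edgeR adjusted p = 0.875, 0.0547 and 0.0982). Within a library, the log2 ratio of Plod2 to Plod1 per kilobase was 0.73 ± 0.22 (SD, n = 4) at day 0, 0.24 ± 0.18 at day 7, 0.42 ± 0.29 at day 14 and 0.21 ± 0.37 (n = 3) at day 21. All day 7 ratios, up to 0.34, lay below all day 0 ratios, from 0.48, and the later days overlapped day 0. Plod3, the remaining lysyl hydroxylase gene, was looked up after its values were seen and had log2 differences of 0.24, 0.36 and 0.15, with no call.

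**Figure D2:**
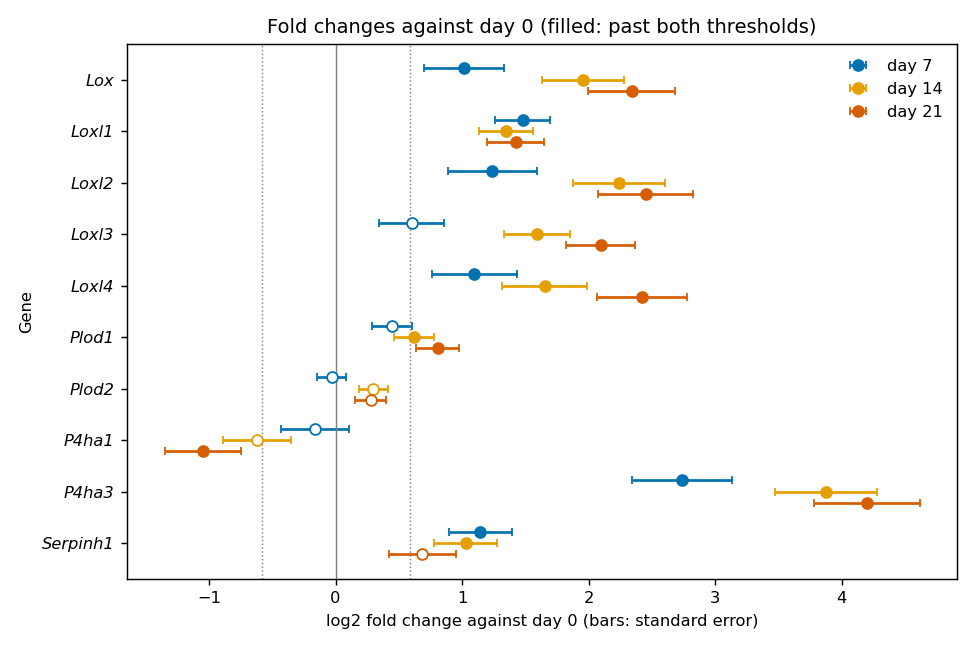
Log2 fold change against day 0 (x axis) for each gene (y axis) at days 7, 14 and 21, with standard errors from the edgeR fit; filled points passed both thresholds and dotted lines mark a fold change of 1.5. P4ha3 lies farthest right, at 2.73, 3.87 and 4.20, P4ha1 is the only gene with a filled point left of 0, at -1.05, and the 3 Plod2 points stay inside the dotted lines.

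P4ha1 and P4ha3 encode catalytic alpha subunits of prolyl 4-hydroxylase, P4ha1 being the common one (ENSMUSG00000019916, chr10:59323296-59373304, plus strand). It measured 193, 223, 124 and 130.3 CPM at day 0 and 129.7, 106, 157 and 207 CPM at day 7. The day 14 libraries held 73.9, 88.9, 142 and 131 CPM, and at day 21 56.3, 74.9 and 112 CPM. Day 21 lay wholly below day 0, while days 7 and 14 overlapped it. The log2 differences at days 7 and 14 were -0.16 ± 0.27 and -0.62 ± 0.27 and did not pass (edgeR adjusted p = 0.697 and 0.0911). At day 21 P4ha1 fell by 1.05 ± 0.30 on the log2 scale (adjusted p = 0.0155), and without replicate 1 of day 21 the difference was -0.88 with adjusted p = 0.0611. The day 0 replicates with a low mitochondrial share, 1 and 2, held the higher P4ha1 values. At day 14 the library of a low share, replicate 1, held the lowest value instead, and at day 21 replicate 3, of the lowest share, held the highest. Without the filter on low counts the day 14 difference was -0.65 and passed (adjusted p = 0.0444). Among libraries of a higher share alone the day 14 difference was -0.09, and with the share in the fit the day 21 difference was -1.02 with adjusted p = 0.0185.

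P4ha3 encodes a subunit that is scarce in healthy lung (ENSMUSG00000051048, chr7:100285520-100319699, plus strand). It measured 1.88, 2.42, 0.825 and 1.62 CPM at day 0, the lowest from 13 reads, and 12.4, 11.8, 11 and 9.87 CPM at day 7. At day 14 it measured 48.9, 22.6, 15.8 and 11.8 CPM, and at day 21 31.6, 27.3 and 34.4 CPM. Every bleomycin library was several times above every day 0 library, and day 21 lay wholly above day 7. P4ha3 rose by 2.73 ± 0.40 at day 7 (edgeR adjusted p = 0.000284), 3.87 ± 0.40 at day 14 (adjusted p = 6.90e-06) and 4.20 ± 0.42 at day 21 (adjusted p = 7.88e-06), on the log2 scale, which is 6.66, 14.6 and 18.4-fold. With the mitochondrial share in the fit the day 7 value was 2.1, or 4.28-fold (adjusted p = 0.00119). Without replicate 1 of day 14 the day 14 value was 3.28, or 9.74-fold (adjusted p = 2.48e-06).

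Per kilobase of exon, P4ha1 stood at 40.8 ± 11.7 (SD, n = 4) CPM at day 0 and P4ha3 at 0.537 ± 0.212. At day 21 the levels were 19.7 ± 6.8 (n = 3) and 9.92 ± 1.14 CPM per kilobase. The log2 ratio of P4ha3 to P4ha1 within a library went from -6.30 ± 0.39 at day 0 to -3.30 ± 0.54 at day 7, -1.91 ± 1.31 at day 14 and -0.94 ± 0.45 at day 21. All bleomycin libraries lay above all day 0 libraries in this ratio, and every one stayed below 0, so P4ha1 remained the more abundant of the pair. P4ha2, the subunit gene outside the list, was added after values were seen and stood at 13 and 12 CPM per kilobase at days 0 and 21, with no call.

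Serpinh1 encodes HSP47, the collagen-specific chaperone (ENSMUSG00000070436, chr7:99345376-99353239, minus strand). It measured 416, 508, 246 and 265 CPM at day 0 and 813, 607, 787 and 959 CPM at day 7. On day 14 the values were 777, 616, 865 and 669 CPM, and at day 21 466, 439 and 826 CPM. Days 7 and 14 lay wholly above day 0, and 2 of the 3 day 21 libraries lay within the day 0 range. Serpinh1 rose at day 7 by 1.14 ± 0.25 on the log2 scale (edgeR adjusted p = 0.00452) and by 1.03 ± 0.25 at day 14 (adjusted p = 0.00519). The day 21 difference was 0.69 ± 0.26 and did not pass (adjusted p = 0.0613). It passed in DESeq2 (0.66, adjusted p = 0.0440), with the mitochondrial share in the fit (0.76, adjusted p = 0.0155), and without replicate 2 of day 0 (0.87, adjusted p = 0.0228) or replicate 2 of day 21 (0.81, adjusted p = 0.0484). Without replicate 3 of day 21, the library at 826 CPM, it was 0.29 with adjusted p = 0.448.

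Serpinh1 was set against its client Col1a1, the alpha 1 chain of type I collagen, within each library. The log2 ratio per kilobase was 1.59 ± 0.42 (SD, n = 4) at day 0, 0.56 ± 0.17 at day 7, 0.07 ± 0.95 at day 14 and -0.63 ± 0.68 (n = 3) at day 21. All bleomycin libraries lay below the lowest day 0 ratio of 0.97, and all 3 day 21 libraries lay below 0. Replicate 1 of day 14, at -1.29, and replicate 1 of day 21, at -1.40, were the lowest. Col1a1 itself rose by 2.20 ± 0.43, 2.87 ± 0.44 and 2.99 ± 0.46 on the log2 scale at days 7, 14 and 21 (edgeR adjusted p = 0.00244, 0.000208 and 0.000246). Without replicate 1 of day 14 the day 14 value was 2.08 (adjusted p = 0.000112), and among libraries of a higher mitochondrial share it was 2.23 (adjusted p = 0.00306).

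**Figure D3:**
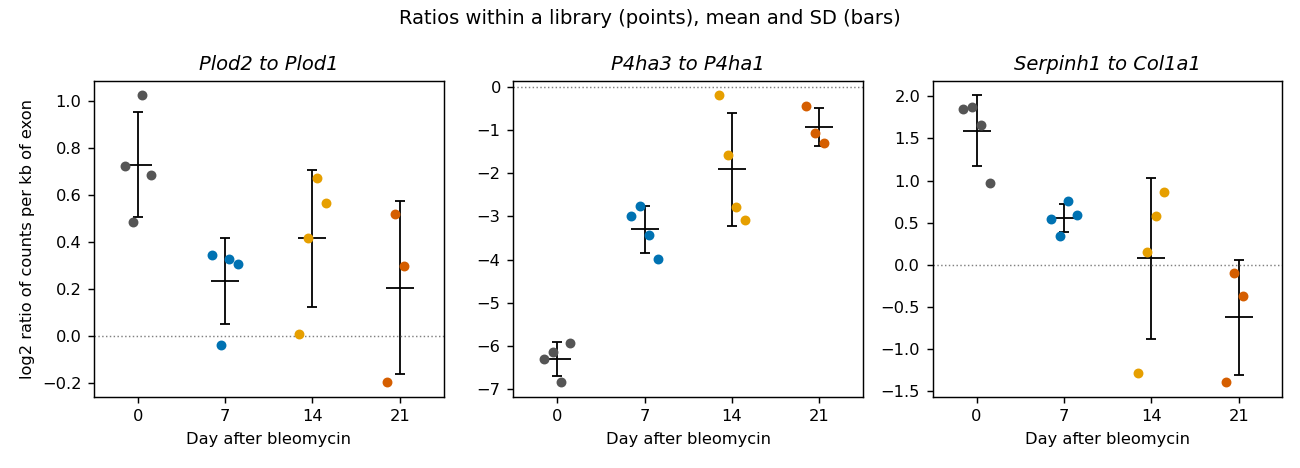
Log2 ratios of counts per kilobase of exon between pairs of genes within each library (y axes) by day after bleomycin (x axis), with points for libraries and bars for the mean and SD. The P4ha3 to P4ha1 ratio moves from -6.30 to -0.94, the Serpinh1 to Col1a1 ratio from 1.59 to -0.63, and the Plod2 to Plod1 ratio overlaps day 0 at days 14 and 21.

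**Figure D4:**
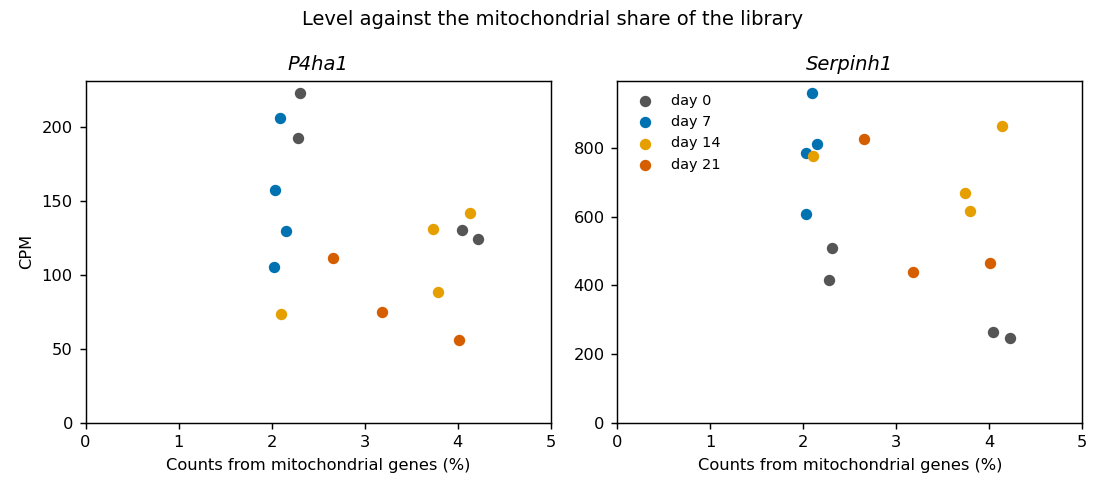
CPM of P4ha1 and Serpinh1 (y axes, linear from 0) against the percent of a library's counts from mitochondrial genes (x axes), with 1 point per library coloured by day. At day 0 the 2 libraries near 2.3% hold higher values of both genes (P4ha1 193 and 223 CPM) than the 2 above 4% (124 and 130.3 CPM), and at day 21 the Serpinh1 value of 826 CPM belongs to the library at 2.66%. Day 14 differs, the library at 4.14% holding the highest values of both genes (142 and 865 CPM) and that at 2.1% the lowest P4ha1 value (73.9 CPM).

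Comparisons between the bleomycin days asked which genes kept moving after day 7. From day 7 to day 21, 5 of the 10 were higher, against 5.2% of all genes, and no member was lower. These were Lox at 1.33 ± 0.34 on the log2 scale (edgeR adjusted p = 0.0202), Loxl2 at 1.21 ± 0.37 (adjusted p = 0.0421), Loxl3 at 1.49 ± 0.27 (adjusted p = 0.00399), Loxl4 at 1.32 ± 0.34 (adjusted p = 0.0220) and P4ha3 at 1.46 ± 0.36 (adjusted p = 0.0187). In each of the 5, every day 21 library lay above every day 7 library, which held for 14.6% of all genes. The count was 1, Loxl3, without replicate 1 of day 21, and 2 without replicate 1, 3 or 4 of day 7. Loxl2 also lost its call without replicate 2 of day 7 or replicate 3 of day 21, and Lox without replicate 2 of day 21, with adjusted p from 0.0535 to 0.0633. The Loxl2 call was lost as well in limma voom (1.07, adjusted p = 0.0607) and with the mitochondrial share in the fit (1.55, adjusted p = 0.0575), where P4ha3 was 2.28 (adjusted p = 0.00204). P4ha1, at -0.89 ± 0.30 with adjusted p = 0.0607, passed as lower in DESeq2, without the filter on low counts, and without replicate 2 of day 7 or replicate 3 of day 21. From day 7 to day 14, 1 gene, Loxl3, was higher, by 0.99 ± 0.25 (adjusted p = 0.0298), against 2.77% of all genes. Without replicate 1 of day 14 the Loxl3 difference was 0.64 with adjusted p = 0.0521, and the call was also lost without replicate 2 of day 14 or replicate 1, 3 or 4 of day 7, in limma voom (0.88, adjusted p = 0.0579) and in the 2 groups alone (adjusted p = 0.0539). In DESeq2 Lox, Loxl2 and P4ha3 passed as well, at 0.95, 1.02 and 1.15 (adjusted p = 0.0253, 0.0284 and 0.0142), as they did without the filter on low counts or without replicate 4 of day 14. Lox also passed without replicate 2 of day 7 (1.20, edgeR adjusted p = 0.04945). With the mitochondrial share in the fit Loxl3 did not pass (1.16, adjusted p = 0.0711), while Lox (1.39, adjusted p = 0.0437) and P4ha3 (1.82, adjusted p = 0.0165) did. From day 14 to day 21, edgeR called 0 of the 10, against 0% of all genes, and DESeq2 called 0 of the 10. At an unadjusted p under 0.05 there was 1, Loxl4, with a log2 difference of 0.77 ± 0.34, beside 9.82% of all genes.

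Over the 15 libraries the log2 CPM of the oxidases and P4ha3 ran together, with Pearson's r from 0.674 to 0.942 over their 15 pairs. After each day's mean was removed, so that only differences between libraries of a day were left, r was 0.42 to 0.872, the highest for Loxl2 with Loxl3. P4ha1 and Serpinh1 had r = 0.102 over all libraries and 0.778 within days. P4ha1 with Loxl3 had r = -0.83 over all libraries and -0.637 within days. Correlation with the mean of the 10 standardised genes was highest for P4ha3 (0.973) and Plod1 (0.953) and lowest for Plod2 (0.603) and P4ha1 (-0.521). The genes outside the list most like that mean were Col15a1 (0.977) and Col12a1 (0.976), which encode non-fibrillar collagens, the adaptor gene Grb10 (0.975), the fibronectin gene Fn1 (0.973) and the myosin gene Myo5a (0.967). These values are descriptions over libraries that share group differences and, in replicate 1 of day 14, 1 library far from its group.

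Other genes of the pathway were taken from lists, also chosen with earlier results known, with counts set beside the shares of all 17457 genes. Of 20 genes for collagen folding, modification and export in the endoplasmic reticulum, 7, 6 and 7 were higher than day 0 at days 7, 14 and 21 and 1 was lower at each day, against 8.78%, 12% and 12.4% of all genes higher and 7.36%, 11.2% and 10.1% lower. The median log2 fold changes of that list were 0.32, 0.45 and 0.36. Fkbp10, a prolyl isomerase that partners lysyl hydroxylase 2, rose by 1.31, 1.83 and 1.93, and the prolyl 3-hydroxylase gene P3h1 by 1.04, 1.38 and 1.40 (edgeR adjusted p from 2.92e-05 to 0.00183 for the pair). The collagen galactosyltransferase genes split, in that Colgalt1 rose by 0.71, 1.11 and 1.09 and Colgalt2 had log2 fold changes of -1.40, -1.77 and -1.96 (adjusted p from 1.78e-05 to 0.00233).

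Of 10 substrate genes, fibrillar collagen chains and elastin, 9 were tested, Col2a1 being under the count filter. Of these, 7, 8 and 8 were higher at days 7, 14 and 21 and none lower, with medians of 2.14, 2.82 and 3.06, beside those same shares of all genes. With each library left out in turn the day 14 median ran from 2.08 to 3.065. With the mitochondrial share in the fit 4 of the 9 were higher at day 7, with a median of 1.63. Elastin (Eln) rose by 2.76, 4.21 and 4.25 (edgeR adjusted p from 5.79e-07 to 2.88e-05) and Col5a3 by 2.25, 3.09 and 3.85 (adjusted p from 0.000221 to 0.00842). In that fit Col5a3 did not pass at day 7 (1.76, adjusted p = 0.0887). It was 2.33 at day 14 without replicate 1 of that day and 3.12 at day 21 without replicate 1 of that day, and passed in both. Col11a1 rose by 6.19 at day 14 and 5.77 at day 21 (adjusted p = 0.000702 and 0.00156), and its day 7 value of 1.46 ± 1.32 did not pass (adjusted p = 0.447). It held only 1 to 8 reads a library at day 0, and 30 to 823 at day 14. Without replicate 1 of day 14 the Col11a1 value at day 14 was 4.52 (adjusted p = 0.00109), and without replicate 1 of day 21 that at day 21 was 4.91 (adjusted p = 0.00795). Without replicate 4 of day 0 the values at days 7, 14 and 21 were 2.16, 6.89 and 6.46, and with the mitochondrial share in the fit the day 7 value was 0.43, the day 7 value passing in neither. The day 14 value was 5.26 in limma voom and 4.22 among libraries of a higher share, and passed in both (adjusted p = 0.0431 and 0.0250).

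Of 16 genes that process, bind or supply copper to the oxidases and their fibres, 4, 8 and 10 were higher and 1, 2 and 2 lower, with medians of 0.39, 0.55 and 0.81, again beside those shares. At day 14 the number lower was 1 without replicate 3 of that day, and the median was 0.30 without replicate 1. None was lower at day 7 with the mitochondrial share in the fit. Fn1, whose product fibronectin binds lysyl oxidase, rose by 2.43, 3.33 and 3.64, and the fibrillin gene Fbn1 by 1.99, 2.49 and 2.77 (edgeR adjusted p from 1.12e-05 to 0.000301). Without replicate 1 of day 14 the Fn1 value at day 14 was 2.68 (adjusted p = 1.23e-06). Fmod, encoding fibromodulin, rose by 2.33 and 2.92 at days 14 and 21 (adjusted p = 5.68e-05 and 1.82e-05). Pcolce2, an enhancer of procollagen cleavage, fell by 1.20, 2.29 and 2.59 (adjusted p from 5.68e-05 to 0.00879), and with the mitochondrial share in the fit its day 7 value of -1.02 did not pass (adjusted p = 0.0817).

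Of 14 genes known as hypoxia targets, a class to which P4ha1 and Plod2 belong, 2, 4 and 5 were higher and 3, 2 and 1 lower, with medians of 0.05, 0.22 and 0.26, against 8.78%, 12% and 12.4% of all genes higher and 7.36%, 11.2% and 10.1% lower. The number higher at day 21 was 2 without replicate 1 of day 21 and 3 without replicate 3 of day 21 or replicate 1 or 3 of day 0, and the number lower at day 7 was 1 without replicate 1 of day 7 and 2 without replicate 2 or 3 of day 7 or replicate 2 or 4 of day 0. At day 7, 1 was higher and 1 lower with the mitochondrial share in the fit, and among libraries of a higher share 2 were higher at day 14. The number lower was 3 at day 14 without replicate 4 of day 0 or replicate 3 of day 14, and 2 at day 21 without replicate 1 of day 21. Ankrd37 rose by 2.03 and 2.28 at days 14 and 21 and Adm by 1.26 and 1.20 (edgeR adjusted p from 0.000316 to 0.0490). The glycolytic regulator Pfkfb3 fell by 0.64 and 0.86 at days 7 and 14 and the mitophagy gene Bnip3 by 0.66 and 0.80 (adjusted p from 0.000440 to 0.0292). At day 21 Pfkfb3 and Bnip3 stood at -0.39 and -0.14 and did not pass. Adm did not pass at day 14 without replicate 1, 2 or 3 of day 0 or replicate 3 or 4 of day 14. Among libraries of a higher share its day 14 value was 0.95 and did not pass (edgeR adjusted p = 0.203). Among those of a lower share Adm passed at day 7 (1.35, adjusted p = 0.0251). At day 21 it was 0.61 (adjusted p = 0.355) without replicate 1 of day 21, and it did not pass without replicate 3 of day 21 or replicate 1, 2 or 3 of day 0, in limma voom, with other scaling, with a minimum mean of 1 CPM, or in the 2 groups alone. The day 7 call of Bnip3 was lost without replicate 2 of day 0 or replicate 1, 2 or 3 of day 7, and with the mitochondrial share in the fit (-0.66, adjusted p = 0.106). That of Pfkfb3 fell under the fold threshold without replicate 4 of day 0, at -0.53, and among libraries of a lower share, at -0.51. Without replicate 1 of day 21, Bnip3 at day 21 was -0.60 and passed (adjusted p = 0.0241).

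Cell type markers moved over the same days, and their part in the results was not tested. Of 14 mesenchymal markers, 3, 4 and 5 were higher and 1, 4 and 4 lower at days 7, 14 and 21, against 8.78%, 12% and 12.4% of all genes higher and 7.36%, 11.2% and 10.1% lower. Their summed level ran from 3208 to 4098 CPM at day 0, 2414 to 2855 at day 7, 1544 to 2316 at day 14 and 2125 to 2163 at day 21. Inmt, a marker of alveolar fibroblasts, took 1318 to 2419 CPM of the day 0 sum and 133 to 292 CPM of that at day 21. Without Inmt, left out after its values were seen, the other 13 markers summed to 1679 to 1890 CPM at day 0, 1882 to 2118 at day 7, 1381 to 2212 at day 14 and 1833 to 2030 at day 21, so every day overlapped day 0. Of 8 macrophage markers, 5, 7 and 6 were higher and 0, 0 and 1 lower, and their sum went from 266 to 337 CPM at day 0 to 893 to 1417 at day 7, 1981 to 5401 at day 14 and 1964 to 5296 at day 21. Without Spp1, also left out after its values were seen, which encodes the secreted protein osteopontin and took 1275 to 3778 CPM at day 14, the other 7 summed to 218 to 265 CPM at day 0, 488 to 672 at day 7, 706 to 1623 at day 14 and 676 to 1391 at day 21, still above day 0 in every library. Of 8 epithelial markers, 0 were higher and 2, 4 and 7 lower, and their sum went from 53610 to 69120 CPM at day 0 to 10070 to 14790 at day 21. Of 8 endothelial markers, 0 were higher and 2, 4 and 2 lower, with sums of 3563 to 4093 CPM at day 0 and 2282 to 2991 at day 21. No marker of any list, those that define lung epithelium included, was at 0 in every library. Of 5 mesothelial markers, 1 was higher at each day. Of 6 tested cardiac markers, 0, 2 and 0 were lower, and of 5 adipose markers, 0, 4 and 3 were lower, none of either being higher. These counts moved with single libraries. The number of endothelial markers lower at day 14 was 7 without replicate 2 of day 14 and 6 without replicate 3 of day 14 or replicate 2 of day 0, and at day 21 it was 6 without replicate 2 of day 21, 3 without replicate 3 of day 0 and 1 without replicate 1 of day 21. The number of epithelial markers lower at day 7 was 1 without replicate 1 or 3 of day 0 or replicate 1, 2 or 4 of day 7, and at day 14 it was 2 without replicate 1 of day 14 or replicate 3 of day 0. With each library left out in turn, 0 to 2 cardiac markers were lower at day 14, 1 to 4 adipose markers were lower at day 21, 2 or 3 mesenchymal markers were higher at day 7, and 1 or 2 mesothelial markers were higher at day 7, the 2 without replicate 4 of day 7. With the mitochondrial share in the fit, 0 mesenchymal markers were higher, and 0 endothelial and 1 epithelial markers were lower, at day 7. Among libraries of a higher share, 2 endothelial, 2 epithelial and 6 cardiac markers were lower at day 14, and in limma voom 2 and 0 adipose markers were lower at days 14 and 21.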

How the data were processed

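Whole lung polyA RNA of 15 mouse libraries was measured. The deposited table holds whole-number counts per Ensembl gene, which the authors made with HTSeq 0.6.0 from uniquely placed HISAT2 2.1.0 alignments to GRCm38 after TrimGalore trimming, and did not normalize. Versions follow the submitters' processing notes. The annotation release and strand setting are not given in the sources used here.

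Groups were taken from the sample titles. The 33340 genes held 450 with no count, and 33267 identifiers matched GENCODE M21 on GRCm38, with 0.00889% of counts unmatched. Counts were fitted with edgeR 4.0.16 in R 4.3.3 (quasi-likelihood test, TMM scaling, filterByExpr, day group only, all 15 libraries in 1 fit), which left 17457 genes, with Benjamini-Hochberg adjustment over these. A gene was called at adjusted p under 0.05 and fold change over 1.5. CPM use TMM library sizes of the genes tested. CPM per kilobase and ratios use the union of exons. The ratios given had nothing added to the counts, and adding 0.5 to each count was an alternative. The fit was tested on simulated data. Intervals and precision cover counting error and the spread between libraries only.

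The 10 genes and the lists were chosen with earlier results of these data known. All 10 were named. From each pathway list the 4 called genes with the largest change at day 14 were named, with Col1a1 and the 5 genes most like the mean of the 10. Alternatives were DESeq2 1.42.0, limma 3.58.1 voom, other scaling and filters, a test against the fold threshold (glmTreat), the mitochondrial share as a covariate, libraries split at a share of 2.5% or 3.5%, a replicate block, 2 groups alone, and each library left out. Promoter windows came from RefSeq tables. The series design text gives fewer replicates for some days than the titles do.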

Additional observations from a re-analysis of the deposited data

Results flagged for a closer look

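The Plod2 to Plod1 ratio in replicate 2 of day 7 lay apart from the rest of its group. It was -0.0377 on the log2 scale, and the other day 7 libraries lay from 0.306 to 0.343. The gap took up 0.903 of the group's range, above the limit of 0.829 for 4 samples. Of 39 groups of values examined this was the one past its limit, and chance alone passes about 5% of groups. That library held the lowest Plod2 value of day 7.

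Fold changes that differed between days were those in which the difference between bleomycin groups was itself tested and passed in edgeR's quasi-likelihood fit. The log2 difference between days 14 and 7 was 0.99 for Loxl3, higher at day 14 in 3 of 4 libraries than any day 7 library. The log2 differences between days 21 and 7 were 1.33 for Lox, 1.21 for Loxl2, 1.49 for Loxl3, 1.32 for Loxl4 and 1.46 for P4ha3, each higher in 3 of 3 day 21 libraries than in any of day 7.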

How the results depend on the processing

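The number of genes higher at day 7 than at day 0 was 6 in the edgeR fit, 2 in a test against the fold change of 1.5, 3 when the mitochondrial share entered as a covariate, and 3 to 6 with each library left out. For day 14 against day 7, where 1 gene was called, DESeq2 and the unfiltered table each gave 4, the covariate gave 2 (Lox and P4ha3, with Loxl3 lost), limma voom, the fold test and the 2 groups alone each gave 0, and leaving out each library gave 0 to 4. For day 21 against day 7, where 5 were called, the fold test gave 1 and leaving out each library gave 1 to 5. The cause of these changes was not tested. In the fold test the genes higher than day 0 at days 7, 14 and 21 numbered 2, 3 and 3 for the endoplasmic reticulum list, 4, 7 and 5 for the partners of the oxidases and 0, 1 and 1 for the hypoxia targets. A fit with a replicate block left the counts at 6, 8 and 7 higher for days 7, 14 and 21 against day 0, and at 1, 5 and 0 between bleomycin days. Under the block Adm at day 21 did not pass (1.32, adjusted p = 0.0601), Fmod at day 7 passed (0.70, adjusted p = 0.0249), and Col11a1 at day 14 was 5.41. The numbers were not taken as pairing, since the labels give them no shared source. Of same-numbered pairs of deviations, 8 of 21 correlated over 0.1, from -0.244 to 0.397 (median 0.041), against 13 of 63 pairs with other numbers (median -0.032). These correlations lean towards the same-numbered pairs and were not the reason for the choice.

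Of the single-gene fold changes of the 10 genes of the list, 10 turned sign, none of them called. Genes outside the list were not counted here. Leaving out each library took Plod2 at day 7 from -0.13 to 0.063, with the sign turned without replicate 2 of day 7. With the covariate, Loxl1 was 0.30 and Serpinh1 0.36 for day 14 against day 7, and Loxl1 0.40 for day 21 against day 7, where leaving out each library gave -0.12 to 0.052, turned without replicate 2 of day 7. For day 21 against day 14 these ranges were -0.038 to 0.326 for Loxl1, turned without replicate 2 or 4 of day 14, -0.121 to 0.036 for Plod2, turned without replicate 3 of day 14 or replicate 1 of day 21, and -0.357 to 0.674 for Loxl2, turned without replicate 1 of day 21. Of the remaining values, 1036 kept direction and side of the threshold, 61 lost a call and 23 gained one. Groups of 3 or 4 and 13 reads for the lowest P4ha3 value limit precision.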
